A study of Patiria miniata with 6 samples.

Results

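The acetylcholinesterase-named genes of the bat star Patiria miniata were represented by 7 loci with 3 names in pooled hatched blastulae. Members were all loci whose gene name in the authors' deposited table of 27630 loci begins Pm-Ache and goes on with a numbered suffix or with L, in that letter case, out of 80165 loci counted in all. Pm-AcheL_2 stood at 4 loci, Pm-Ache_19 at 2 and Pm-Ache_21 at 1. The rule uses names and no measured difference, but it was set with earlier results of these data known. Every locus of that table had passed a filter on low reads. All 7 were also among the 44120 loci tested here.

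The Pm-Tbr MASO group held 3 libraries of embryos aged 36 hours post fertilization that had been injected as zygotes with a morpholino directed at Pm-Tbr, a gene of the T-box family of transcription factors, at 600 µM. A MASO, or morpholino antisense oligonucleotide, is a synthetic strand that binds a chosen RNA. The control MASO group held 3 libraries of embryos aged 30 hours that had received a standard control MASO at the same concentration. All embryos grew in artificial seawater at 15 °C, were pooled, and had been picked for a rhodamine tracer and healthy morphology, so embryos that arrested or developed abnormally are not represented. Every difference between the groups is at the same time one of morpholino and of age, which cannot be told apart. Whether the libraries of a group stem from separate spawnings is not in the labels, so the p-values cover the spread between libraries, which may be technical. The target, Pm-Tbr, was not analysed here. Counts assigned to loci were 17795136 to 28167566 per Pm-Tbr MASO library and 25423004 to 26958581 per control MASO library.

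Acetylcholinesterase is a serine hydrolase that splits acetylcholine and ends its signal at synapses. It shares its fold with butyrylcholinesterase, with carboxylesterases and with neuroligins, adhesion proteins that have lost the catalytic activity. Acetylcholine and cholinesterase activity have been described in sea urchin embryos before neurons form. The bat star names were given to gene models by the authors' annotation, and a name does not show that a locus makes an active enzyme.

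In the family 1 locus was called. Pm-Ache_19 on scaffold 2045 was higher in Pm-Tbr MASO embryos, though its call was kept in only 1 of 6 fits with a library left out. Its other locus and the 5 loci of the other names did not pass the test, which does not show that they stayed the same. The Pm-AcheL_2 locus with the most reads stayed within a few CPM in all 6 libraries. CPM are read counts relative to library sizes after scaling. They are not corrected for transcript length, so the order of 2 loci by CPM is an order of reads. In bulk RNA, fewer cells of a type and less RNA per cell cannot be told apart.

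Pm-Ache_19 on scaffold 2045 (locus XLOC_028481, gene model PMI_007440, minus strand, 25922 to 47528 in the authors' assembly, for which no build is named) had 18.4, 29.5 and 67.8 CPM in Pm-Tbr MASO replicates 1 to 3, against 2.19, 3.67 and 1.11 CPM in control MASO replicates 1 to 3. These values stand for 316, 883 and 1212 reads in Pm-Tbr MASO libraries and for 57, 100 and 28 in control MASO libraries. The groups did not overlap, and the Pm-Tbr MASO libraries themselves differed by up to 3.68-fold. The mean was 38.6 ± 25.9 CPM in Pm-Tbr MASO embryos and 2.32 ± 1.29 CPM in control MASO embryos (SD, n = 3 each), 16.5-fold higher, with a log2 fold change of 4.05 ± 0.62 (SE). It passed the quasi-likelihood test of edgeR with Benjamini-Hochberg adjustment over all loci tested (adjusted p = 0.0285), and it was higher in 3 of 3 pairs of libraries with the same replicate number, by 3.08, 3.01 and 5.93 on the log2 scale. Of the 7 members, 1 was thus called, where 2.28% of all tested loci were. The tested loci include some with too few reads for the authors' table, from which the members come. With a filter of CPM above 2 in at least 3 libraries, 1449 of 27630 loci were called. One member of 7 had groups that did not overlap, where 26.5% of all tested loci did. The call ended when any library other than Pm-Tbr MASO replicate 3 was left out (adjusted p = 0.0608 and 0.0737 without Pm-Tbr MASO replicates 1 and 2, and 0.0808, 0.107 and 0.0682 without control MASO replicates 1, 2 and 3), while the log2 fold change stayed between 3.36 and 4.53 over all 6 such fits.

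**Figure D1:**
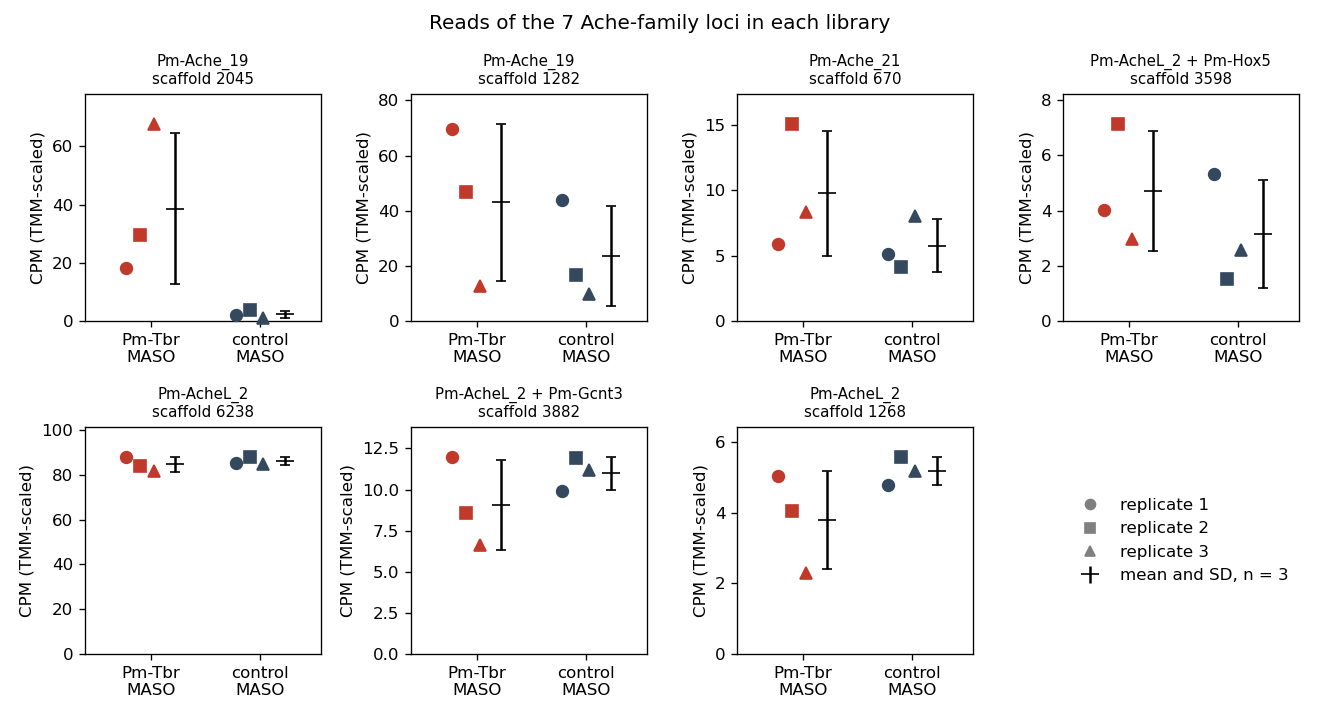
CPM of the 7 loci in each library, Pm-Tbr MASO left and control MASO right, with symbols for the replicate numbers and bars for the mean and SD (n = 3). Each panel has its own axis from 0. At Pm-Ache_19 on scaffold 2045 the lowest Pm-Tbr MASO library (18.4 CPM) lies above the highest control MASO library (3.67 CPM), and in the other 6 panels the groups overlap.

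The other locus of that name behaved differently within groups. Pm-Ache_19 on scaffold 1282 (XLOC_010041, PMI_012827, minus strand, 87667 to 102123) had 69.5, 46.9 and 12.9 CPM in Pm-Tbr MASO replicates 1 to 3, against 44.0, 16.6 and 10.0 CPM in control MASO replicates 1 to 3. Replicate 1 was the highest library of both groups and replicate 3 the lowest, and the groups overlapped. The mean was 43.1 ± 28.5 CPM in Pm-Tbr MASO embryos and 23.5 ± 18.1 CPM in control MASO embryos (SD, n = 3 each), and the log2 fold change of 0.87 ± 0.67 (95% interval -0.67 to 2.42) did not pass (adjusted p = 0.520). In the pairs 1, 2 and 3 the log2 ratios were 0.66, 1.50 and 0.36, all positive. In the fit with a replicate block the log2 fold change was 0.84 with a smaller SE of 0.26, and it still did not pass (adjusted p = 0.0850). The authors' deposited table gave this locus a log2 fold change of 0.90 with a false discovery rate of 0.0781, and the locus on scaffold 2045 one of 3.86 with 0.0108, where 9.27% of that table's loci were under 0.05.

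In Pm-Tbr MASO libraries the locus on scaffold 2045 was high where that on scaffold 1282 was low. The log2 ratio of CPM at scaffold 2045 over scaffold 1282 was -1.91, -0.67 and 2.40 in Pm-Tbr MASO replicates 1 to 3, against -4.33, -2.17 and -3.17 in control MASO replicates 1 to 3. The ratios did not overlap between groups. Their numerator is the locus already called higher, so this repeats that difference and is no separate result. Their means were -0.06 ± 2.22 in Pm-Tbr MASO libraries and -3.23 ± 1.08 in control MASO libraries (SD, n = 3 each), a difference of 3.16, and within pairs 1, 2 and 3 the difference was 2.42, 1.50 and 5.57. A two-sided exact permutation test gave p = 0.10, the smallest p that 3 libraries against 3 allow, so it cannot reach 0.05 in this design.

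Summed over both loci, Pm-Ache_19 had 87.9, 76.5 and 80.6 CPM in Pm-Tbr MASO replicates 1 to 3, against 46.2, 20.2 and 11.1 CPM in control MASO replicates 1 to 3. The sum was closer between Pm-Tbr MASO libraries (mean 81.7 ± 5.78 CPM) than either locus alone, whereas the control MASO libraries stayed apart (25.9 ± 18.2 CPM). Tested as 1 feature in a table where loci of the same name were added up, Pm-Ache_19 had a log2 fold change of 1.64 ± 0.46 and did not pass (adjusted p = 0.106). Reads that aligned to several places were not assigned to any locus. They made up 43.4% to 45.2% of all counts per library, those of the summary lines included. How alike the 2 loci are in sequence was not analysed here, so the split of reads between them is uncertain.

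**Figure D2:**
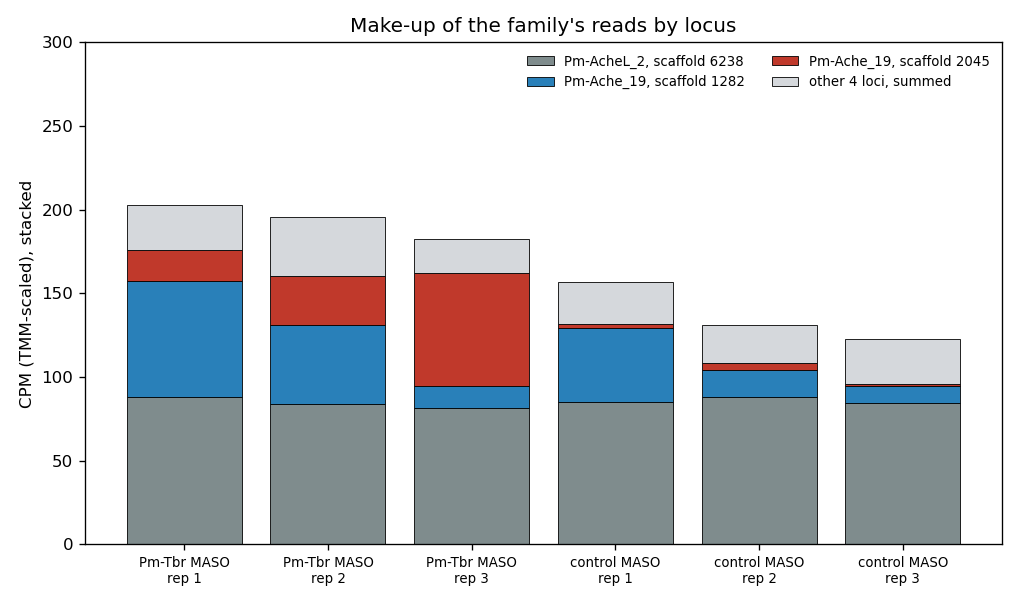
CPM of the family stacked by locus in the 3 Pm-Tbr MASO libraries (left) and the 3 control MASO libraries (right). The grey base, Pm-AcheL_2 on scaffold 6238, keeps about the same height (81.6 to 88.1 CPM), while the red part, Pm-Ache_19 on scaffold 2045, is 18.4 to 67.8 CPM in Pm-Tbr MASO libraries and 1.11 to 3.67 CPM in control MASO libraries.

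The make-up of the family's reads is a description of these libraries. All 7 loci together had 203, 195 and 182 CPM in Pm-Tbr MASO replicates 1 to 3, against 157, 131 and 123 CPM in control MASO replicates 1 to 3, values given without a test. The locus on scaffold 2045 held 20.4 ± 14.8% of the family's CPM in Pm-Tbr MASO embryos and 1.70 ± 0.982% in control MASO embryos. Pm-AcheL_2 on scaffold 6238 held 43.7 ± 0.899% in Pm-Tbr MASO embryos and 63.4 ± 7.85% in control MASO embryos (SD, n = 3 each), a lower share at an almost equal level.

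Pm-AcheL_2, a name for an acetylcholinesterase-like gene, had its main locus on scaffold 6238 (XLOC_062199, PMI_016901, minus strand, 11239 to 37702). It had 88.1, 84.1 and 81.6 CPM in Pm-Tbr MASO replicates 1 to 3, against 85.3, 87.9 and 84.7 CPM in control MASO replicates 1 to 3. The highest library was only 1.08-fold above the lowest, and the groups overlapped. The mean was 84.6 ± 3.28 CPM in Pm-Tbr MASO embryos and 86.0 ± 1.72 CPM in control MASO embryos (SD, n = 3 each). The log2 fold change was -0.02 ± 0.18 (95% interval -0.44 to 0.40, adjusted p = 0.962), so differences of more than 0.44 in either direction lie outside the interval.

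The second locus with Pm-AcheL_2 as its sole name, on scaffold 1268 (XLOC_009590, PMI_014106, minus strand, 9680 to 30007), had 5.02, 4.05 and 2.29 CPM in Pm-Tbr MASO replicates 1 to 3, against 4.79, 5.58 and 5.17 CPM in control MASO replicates 1 to 3. Its lowest value was in Pm-Tbr MASO replicate 3, where 41 reads were counted, and the groups overlapped. The log2 fold change was -0.45 ± 0.36 (95% interval -1.27 to 0.37, adjusted p = 0.532).

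The other 2 loci of Pm-AcheL_2 each span a second gene model, so their reads cannot be given to the cholinesterase name alone. The locus on scaffold 3882 (XLOC_046312, minus strand, 3507 to 34475) also carries Pm-Gcnt3, named for a glycosyltransferase of mucin-type glycans. It had 12.0, 8.59 and 6.60 CPM in Pm-Tbr MASO replicates 1 to 3, against 9.90, 11.9 and 11.2 CPM in control MASO replicates 1 to 3, and its log2 fold change was -0.28 ± 0.29 (adjusted p = 0.651). The locus on scaffold 3598 (XLOC_044122, plus strand, 69 to 16784) also carries Pm-Hox5, a Hox gene name. It had 4.02, 7.15 and 2.96 CPM in Pm-Tbr MASO replicates 1 to 3, against 5.33, 1.54 and 2.58 CPM in control MASO replicates 1 to 3, and its log2 fold change was 0.59 ± 0.53 (adjusted p = 0.592). At both loci the groups overlapped, and in the 3 pairs the sign of the log2 ratio differed, with 1 of 3 pairs higher at the locus on scaffold 3882 and 2 of 3 at that on scaffold 3598.

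Pm-Ache_21 on scaffold 670 (XLOC_065056, plus strand, 134466 to 156191) had 5.89, 15.1 and 8.33 CPM in Pm-Tbr MASO replicates 1 to 3, against 5.14, 4.15 and 8.07 CPM in control MASO replicates 1 to 3. Only Pm-Tbr MASO replicate 2 lay above the highest control MASO library by more than 1 CPM, and the groups overlapped. The mean was 9.77 ± 4.76 CPM in Pm-Tbr MASO embryos and 5.78 ± 2.04 CPM in control MASO embryos (SD, n = 3 each), with a log2 fold change of 0.76 ± 0.42 (95% interval -0.21 to 1.73, adjusted p = 0.362). The locus also covers a second gene model without a name, PMI_009212. Another locus on that model, 11376 bases away, differed by -0.75 ± 0.28 on the log2 scale (adjusted p = 0.183).

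Over the 7 loci the median log2 fold change was 0.59, beside 0.011 over all 44120 tested loci, with 4 positive and 3 negative values between -0.45 and 4.05. With replicate number added as a block, 4455 loci of the whole table were called, 10.1% of those tested, and the family's count was still 1, at Pm-Ache_19 on scaffold 2045 (block adjusted p = 0.0111). Of the 7 loci, 5 had a CPM above 2 in all 6 libraries. Pm-Ache_19 on scaffold 2045 and the Pm-AcheL_2 locus with Pm-Hox5 had it in 3 Pm-Tbr MASO and 2 control MASO libraries.

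**Figure D3:**
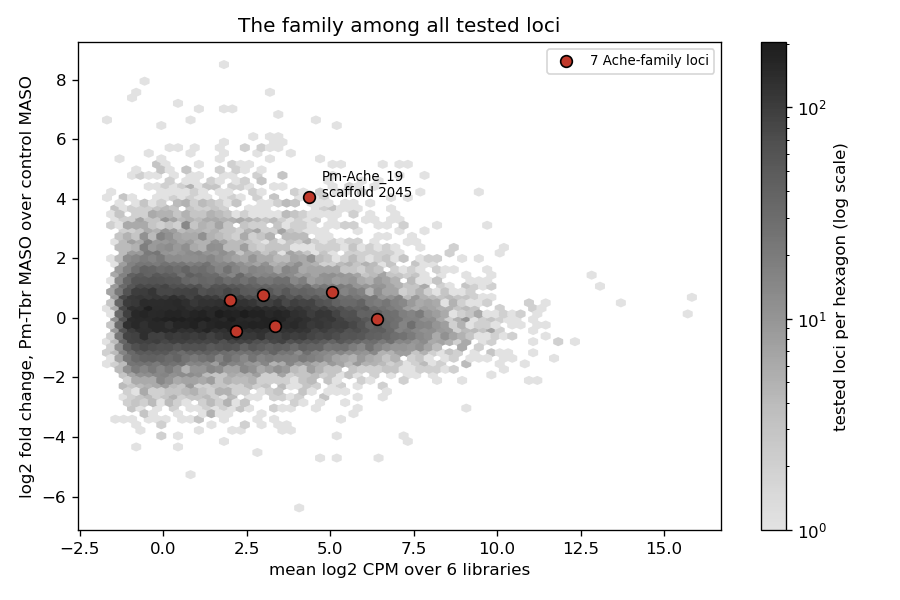
Log2 fold change (Pm-Tbr MASO over control MASO) against mean log2 CPM for all 44120 tested loci, shaded by their number per hexagon, with the 7 family loci in red. Pm-Ache_19 on scaffold 2045 stands at 4.05, and the other 6 lie between -0.45 and 0.87, within the dense part of the cloud.

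The members differed widely in their spread between libraries. The coefficient of variation (SD over mean) of CPM over the 6 libraries was 2.88% for Pm-AcheL_2 on scaffold 6238, and only 1 of 44120 tested loci had a lower one. Under the relative log expression scaling it was 3.30%, with 2 loci lower, and without scaling beyond the library totals 3.96%, with 3 loci lower. Random counting of reads alone would give about 2.21% at this depth. The median over all tested loci was 39.6%, and over the 18955 loci with a mean CPM of at least 5 it was 30.7%. At the other end, Pm-Ache_19 had 126% at scaffold 2045, whose values contain the difference between groups, and 71.7% at scaffold 1282. At scaffold 1282 the spread was also wide inside each group, with a coefficient of variation of 66.1% in Pm-Tbr MASO and 76.7% in control MASO libraries, where counting alone would give about 3.58%. The remaining 4 loci had 21.2% to 51.9%.

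**Figure D4:**
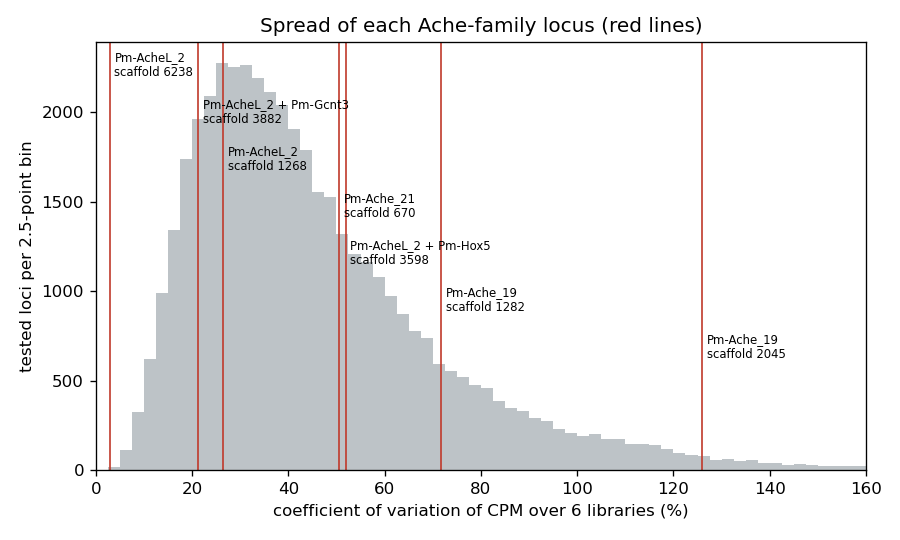
Histogram of the coefficient of variation of CPM over the 6 libraries for all tested loci, cut at 160%, with red lines at the 7 family loci. Pm-AcheL_2 on scaffold 6238 stands at the low end (2.88%), and Pm-Ache_19 stands in the upper tail (71.7% on scaffold 1282 and 126% on scaffold 2045).

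Neighbours were sought within 50 kb and only among loci of the authors' table, so other counted loci may lie closer. Those near both Pm-Ache_19 loci had values of the opposite sign, and none passed the test. The nearest such locus on scaffold 2045 lies 697 bases away on the same strand and belongs to an unnamed gene model (PMI_007441). It had 79.3 ± 30.6 CPM in Pm-Tbr MASO embryos and 110 ± 44.1 CPM in control MASO embryos (SD, n = 3 each). Its log2 fold change was -0.47 ± 0.39 (adjusted p = 0.548). On scaffold 1282 the 2 loci of Pm-Nip7, named for a ribosome biogenesis factor, had log2 fold changes of -0.71 and -0.62, and Pm-Ccdc23 had -0.93. Their adjusted p was 0.109, 0.469 and 0.229. No 2 members lay on 1 scaffold, so whether any of them form a cluster in the genome cannot be seen in this assembly.

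A further 6 loci carry a cholinesterase name in another spelling, Pm-AchE, Pm-AchE_8 or Pm-Ache-13, and lie outside the family as defined. They were added after their values were seen. None passed in edgeR without the block. At 2 of the 6 the groups did not overlap, beside 26.5% of all tested loci. The 2 loci with an unadjusted p under 0.05 (20% of all tested loci had one), both named Pm-Ache-13, were called higher with the replicate block, where 10.1% of all loci were called, and by DESeq2, where 9.71% were. Pm-Ache-13 on scaffold 6314 (20330 to 38500) had 22.3, 31.1 and 15.4 CPM in Pm-Tbr MASO replicates 1 to 3, against 3.95, 9.80 and 8.94 CPM in control MASO replicates 1 to 3. The groups did not overlap, and the log2 fold change was 1.60 ± 0.41 (adjusted p = 0.0826; 0.0275 with the block; 0.00589 by DESeq2). The authors' deposited table called it at a false discovery rate of 0.0465.

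The locus of Pm-Ache-13 on scaffold 10799 (143 to 13293, with an unnamed second model) had 69.5, 153 and 40.4 CPM in Pm-Tbr MASO replicates 1 to 3, against 15.2, 38.0 and 21.3 CPM in control MASO replicates 1 to 3. The groups did not overlap here either, with 40.4 CPM in the lowest Pm-Tbr MASO library and 38.0 CPM in the highest control MASO library, and the log2 fold change was 1.82 ± 0.53 (adjusted p = 0.109; 0.0150 with the block; 0.00885 by DESeq2). The third locus of that name, on scaffold 3763, had 19.7 ± 5.57 CPM in Pm-Tbr MASO embryos and 30.7 ± 9.95 CPM in control MASO embryos (SD, n = 3 each) and pointed the other way, at -0.64 ± 0.33 (adjusted p = 0.320). The locus of Pm-AchE_8, which also spans an unnamed gene model, so that its reads cannot be given to that name alone, had 367, 863 and 538 CPM in Pm-Tbr MASO replicates 1 to 3, against 227, 495 and 332 CPM in control MASO replicates 1 to 3. Replicate 2 was the highest library of both groups and replicate 1 the lowest. The log2 ratios in the pairs were alike (0.69, 0.80 and 0.70), yet the locus did not pass with the block (log2 fold change 0.73 ± 0.19, adjusted p = 0.0523) or without it (0.75 ± 0.38, adjusted p = 0.319). The 2 loci of Pm-AchE had log2 fold changes of -0.27 and -0.30 (adjusted p = 0.786 and 0.702).

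**Figure D5:**
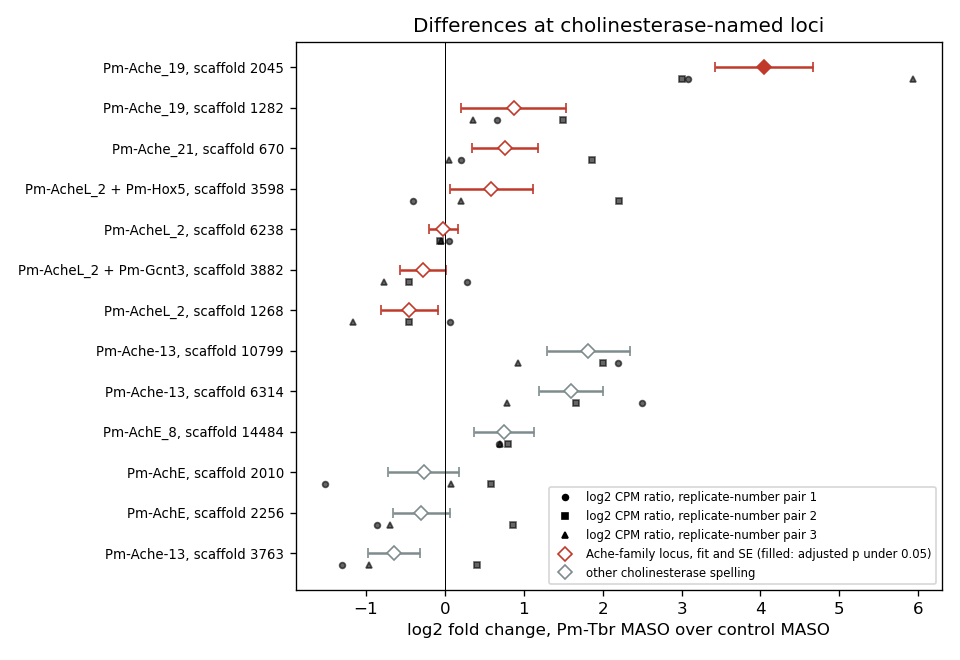
Log2 fold changes with SE (diamonds, filled where the adjusted p is under 0.05) at the 7 family loci (red) and at 6 loci with other cholinesterase spellings (grey), with the log2 CPM ratio of each same-numbered pair as small symbols below. The filled diamond is Pm-Ache_19 on scaffold 2045 at 4.05, and 2 loci named Pm-Ache-13 follow at 1.82 and 1.60 with all 3 pairs above 0.

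Loci with other names linked to acetylcholine signalling did not pass the test at any of 13, beside 2.28% of all tested loci called. None had an unadjusted p under 0.05 in edgeR, beside 20% of all tested loci. DESeq2 called none of them, beside 9.71%. Most of the 13 were named for agrin or a MuSK-like kinase, and fewer for acetylcholine or choline transport or for receptors. The median log2 fold change of all 13 was 0.04, with values from -0.62 to 0.81. Pm-Vacht, named for the transporter that loads acetylcholine into vesicles, had 10.7, 4.55 and 8.72 CPM in Pm-Tbr MASO replicates 1 to 3, against 12.0, 13.6 and 11.2 CPM in control MASO replicates 1 to 3. The groups did not overlap, as at 26.5% of all tested loci, and the log2 fold change was -0.62 ± 0.34 (adjusted p = 0.363). Pm-MachrM5, a muscarinic acetylcholine receptor name, had 55.0 ± 29.4 CPM in Pm-Tbr MASO embryos and 31.5 ± 10.6 CPM in control MASO embryos (SD, n = 3 each) at the locus with more reads (log2 fold change 0.81 ± 0.41, adjusted p = 0.314). The 3 loci named Pm-Slc5a7, for the choline transporter, had log2 fold changes of 0.40, 0.37 and 0.22. In vertebrates agrin and its receptor kinase MuSK gather acetylcholine receptors at the nerve-muscle junction. Pm-MuskL differed by 0.45 ± 0.30 on the log2 scale (adjusted p = 0.450), and Pm-Agrin on scaffold 20531 had the smallest unadjusted p of the list (0.0795), with 28.8, 31.8 and 43.1 CPM in Pm-Tbr MASO replicates 1 to 3, against 45.2, 53.9 and 44.6 CPM in control MASO replicates 1 to 3. No locus named for choline acetyltransferase or a nicotinic receptor subunit was found by name, which says nothing of loci without a name.

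Among 12 loci of related esterases, 1 fell and 11 did not pass, beside a share of 2.28% called over the whole table. At 3 of the 12 the groups did not overlap, beside 26.5% of all tested loci. With the replicate block 1 was higher and 1 lower, beside a share of 10.1%. Pm-Aadac_5 on scaffold 914 (86965 to 91216), named for arylacetamide deacetylase, a serine esterase, had 0.816, 2.24 and 1.29 CPM in Pm-Tbr MASO replicates 1 to 3, against 11.1, 6.28 and 12.4 CPM in control MASO replicates 1 to 3. The groups did not overlap, and the log2 fold change was -2.75 ± 0.46 (adjusted p = 0.0324). The call ended whenever any 1 library was left out (adjusted p = 0.0638 to 0.104). The other 2 loci of that name, at -0.10 and -0.44, did not pass. Pm-Ces2 on scaffold 7330, a carboxylesterase name, had 6.36, 6.25 and 5.81 CPM in Pm-Tbr MASO replicates 1 to 3, against 1.19, 0.661 and 3.85 CPM in control MASO replicates 1 to 3. The groups did not overlap, and its log2 fold change of 1.69 ± 0.60 did not pass (adjusted p = 0.170) but was called higher with the replicate block (adjusted p = 0.0496). A locus of Pm-Aadac_4 on scaffold 914 differed by -1.18 ± 0.58 on the log2 scale (adjusted p = 0.302). Pm-Bche-3, named for butyrylcholinesterase, had 0.816, 5.38 and 2.12 CPM in Pm-Tbr MASO replicates 1 to 3, against 0.499, 2.68 and 3.42 CPM in control MASO replicates 1 to 3. Its log2 fold change was 0.35 ± 0.80 with an interval of -1.48 to 2.19, so a fall or rise of that size was not detectable. The median of this list was 0.16.

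Neurons are the cells in which acetylcholinesterase is best known. The 19 loci of neuron markers summed to 578.6 to 805.6 CPM in Pm-Tbr MASO libraries and to 1037 to 1064 CPM in control MASO libraries, with 1 locus lower, 0 higher and 18 not passing, beside the 2.28% called over the whole table. With the replicate block 2 were higher and 1 lower, beside 10.1% of all tested loci called. By DESeq2 2 were higher and 2 lower, beside 9.71%. The median log2 fold change of the list was 0.07, with 10 positive and 9 negative values. The sums were set mostly by a few transcription factors, Pm-SoxC (298 ± 58.5 CPM in Pm-Tbr MASO embryos and 492 ± 28.2 CPM in control MASO embryos), Pm-Brn1-2-4 (198 ± 64.0 CPM in Pm-Tbr MASO embryos and 264 ± 36.5 CPM in control MASO embryos) and Pm-Nkx2.1 (12.7 ± 9.64 CPM in Pm-Tbr MASO embryos and 99.3 ± 15.7 CPM in control MASO embryos; SD, n = 3 each), of which Pm-Nkx2.1 was the locus called lower. Pm-Syn3, named for a synapsin of synaptic vesicles, and a locus of Pm-Tph on scaffold 5311, named for tryptophan hydroxylase of serotonin synthesis, had log2 fold changes of 1.41 and 1.46 and were called higher in edgeR with the block (adjusted p = 0.0268 and 0.0373) but not without it. The Pm-Tph locus with the most reads, on scaffold 2614, had 0.07 (adjusted p = 0.891), and the other Pm-Tph loci had 0.85 and 0.73. Both loci of Pm-ElavL (-0.65 and -0.25) and of Pm-Ddc (-0.62 and -1.14) had negative values. None of these loci passed in edgeR with or without the block. A list for immune-like mesenchyme held 59 loci matched by the names Srcr, Tlr, Gcm or Pks. Names alone do not show that a locus marks a cell type. The list had 37 positive and 22 negative log2 fold changes. It summed to 1329 to 3315 CPM in Pm-Tbr MASO libraries and to 1423 to 4183 CPM in control MASO libraries. These sums held a pair of Pm-Pks1 loci on scaffold 3, named for a polyketide synthase, at 81.4 to 937 and 142 to 1100 CPM in Pm-Tbr MASO libraries and at 230 to 1800 and 46.3 to 1100 CPM in control MASO libraries. Of the list, 6 loci were called higher and 1 lower, 11.9% beside 2.28% of all tested loci. With a filter of CPM above 2 in at least 3 libraries, 1449 of 27630 loci were called over the whole table. With the replicate block 10 were higher and 3 lower, again beside 10.1% of all tested loci. By DESeq2 10 were higher and 2 lower, beside 9.71%. The locus called lower was that of the transcription factor Pm-Gcm (log2 fold change -2.49, adjusted p = 0.0244). Those called higher were Pm-Tlr028, a Toll-like receptor name (3.96, adjusted p = 0.0256), and 5 loci named for scavenger receptors, Pm-Srcr28, Pm-Srcr159 or both, at 1.93 to 2.70 (adjusted p = 0.0315 to 0.0450). No marker locus of either list was at 0 in any library, and no muscle marker was found by name. The part of these cells in the values of the cholinesterase loci was not tested.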

How the data were processed

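RNA of pooled embryos was made into TruSeq libraries, per the labels' protocols. The authors deposited read counts for 80165 loci plus 5 summary lines in every library. The authors' table of their own comparison holds log2 values (fold change and CPM), the F score, the p-value and the false discovery rate. TopHat2 2.0.12, HTSeq 0.6.1p1, Cufflinks 2.2.1, CASAVA 1.8, SAMtools and edgeR 3.10.5 are named in the submitters' processing notes. No source used here names a genome build or strand setting. Names and positions come from the authors' table.

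The summary lines held 49.0% to 50.6% of all counts per library and entered neither library sizes nor tests. Within groups, libraries differed by far more than sampling noise, with a chi-square of 38.7 to 54.6 times its degrees of freedom. Counts were tested in edgeR 4.0.16 (R 4.3.3) by its quasi-likelihood test, with TMM scaling, filterByExpr (44120 loci left), group as the only term and Benjamini-Hochberg adjustment at 0.05. The SE is the log2 fold change divided by the square root of F. Members and lists were chosen with earlier results of these data known. All came from the authors' filtered table, whereas the shares over the 44120 tested loci include loci with fewer reads. Values are printed for every family locus, for loci spelled otherwise, for called loci of each list, and for some others with the smallest unadjusted p. The remaining loci named from the lists (such as Pm-Bche-3, Pm-Slc5a7, Pm-SoxC, Pm-Brn1-2-4 and Pm-Pks1) were chosen after their values were seen. Markers of neurons and immune-like mesenchyme were matched by name.

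Same-numbered libraries deviated together from their group means (correlations 0.523, 0.225 and 0.546 over 44120 loci, against -0.465 to -0.0519 for unlike numbers), so the pairing comes from the counts and not from a stated batch. Deviations from a group mean cancel within the group. Positive values for like numbers thus force those for unlike numbers to be negative on balance, which is no separate result. Alternatives were DESeq2 1.42.0, other scaling and filters, the replicate block, 1 feature per name, and each library left out. Loci with 2 real names stayed separate in the fit with 1 feature per name.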

Additional observations from a re-analysis of the deposited data

How the results depend on the processing

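The rise of Pm-Ache_19 on scaffold 2045 was called under relative log expression scaling, DESeq2, no filter on low counts, a filter of CPM above 2 in at least 3 libraries, and the replicate block (log2 fold change 4.05, 4.05, 4.01, 4.07 and 3.89). It was not called with 1 feature per name (1.64), where the counts of both loci are summed. The family's count was then 0 of 5 features in edgeR, where 811 of 37783 features were called. An unadjusted p under 0.05 was seen at 1 of the 5, where 7425 of the 37783 had one. With each library left out, the log2 fold change of the locus on scaffold 2045 was 3.36 to 4.53. It was 3.36 to 4.54 where no locus was filtered anew (chosen after seeing the data). The family's count was 0 to 1, with the call kept only without Pm-Tbr MASO replicate 3. Fewer libraries entered those fits, and the count over the whole table moved with them, from 1008 to between 0 and 418, or between 0 and 479 without new filtering. With new filtering the counts of 0 came without control MASO replicate 1 or 2 in edgeR, where 8561 and 6886 loci had an unadjusted p under 0.05. Without new filtering only leaving out control MASO replicate 2 gave 0 (6643 under 0.05), and leaving out replicate 1 gave 209. Over the whole table DESeq2 called 4110 loci and the replicate block 4455. With the block no other call in the family changed.

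Signs turned at 3 uncalled loci; the cause was not tested. Pm-AcheL_2 on scaffold 6238 had 0.01 with the filter of CPM above 2, Pm-AchE on scaffold 2010 lay between -0.78 and 0.17 with each library left out, positive only without control MASO replicate 1 (0.16, or 0.17 without new filtering), and Pm-Ache-13 on scaffold 3763 had 1.03 with 1 feature per name, where it is summed with the other loci of its name. Depth limits the members with few reads most: Pm-Ache_19 on scaffold 2045 had 28 reads in control MASO replicate 3.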
